A study of Penicillium oxalicum with 18 samples.

Results

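xyn10A (locus tag PDE_08094) and xlnR (PDE_07674) are 2 genes of Penicillium oxalicum, a filamentous fungus known for secreting enzymes that break down plant cell walls. They were taken by locus tag from a table of 9261 identifiers measured in 18 libraries, and both passed the filter on low values that left 8390 identifiers for testing. These names, and the names given to the other tags below, were recalled from the literature on strain 114-2, because the table pairs no identifier with a name. The libraries came from mycelium of a nag3 deletion strain and of wild-type strain 114-2. Mycelium of both genotypes was pre-grown for 24 h at 30 °C with 2% glucose. It was then moved for 24 h to modified Mendal's medium with bran-cellulose (1% bran plus 1% microcrystalline cellulose), 2% N-acetylglucosamine (GlcNAc) or 2% glucose. The 6 groups were deletion on bran-cellulose, wild type on bran-cellulose, deletion on GlcNAc, wild type on GlcNAc, deletion on glucose and wild type on glucose, with 3 libraries each. How the deletion was made, and from how many transformants, is not given in the sources used here.

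Xylan is the main hemicellulose of cereal bran, and endo-xylanases such as the product of xyn10A cut its backbone into short oligosaccharides. XlnR is a fungal transcription factor of the zinc cluster type, first described in Aspergillus niger, that activates xylanase genes and, in many species, cellulase genes when xylose or related inducers are present. In Aspergillus oryzae the XlnR protein is reversibly phosphorylated when xylose is supplied. CreA, the carbon catabolite repressor, keeps many such genes low while glucose is plentiful. GlcNAc is the sugar unit of chitin, a polymer of the fungal cell wall.

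FPKM (fragments mapped to a gene, scaled by gene length and library size) summed to between 920824 and 1083828 per library, and replicates correlated across genes at 0.952 to 0.986 (Pearson's r on log2(FPKM + 1)). No 2 libraries were identical. The absolute depth is unknown, so no counting error is attached to the low values of xyn10A. The table does not say which identifier is nag3, so the deleted gene was not checked by name. The single most abundant identifier held between 12.7% and 14.4% of the FPKM sum in deletion libraries on GlcNAc, against 8.25% to 9.86% in wild type on GlcNAc, and between 2.50% and 8.33% in the other groups. The labels do not say whether replicates were separate cultures, so the spread that p-values rest on may be technical. A gene was called when limma's adjusted p (Benjamini-Hochberg, over all 8390 genes) was under 0.05 and the absolute log2 difference was at least 1, and only called genes are said to have risen or fallen. Each log2 difference was taken after adding 1 FPKM, so the change of a gene as low as xyn10A was off bran-cellulose is understated. Their 95% intervals are from the same fit.

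xyn10A was high on bran-cellulose and low on both sugars. In the 6 bran-cellulose libraries of both genotypes its level lay between 14.1 and 35.3 FPKM, against 1.82 to 3.27 FPKM in the 12 libraries on GlcNAc or glucose. xlnR did not follow this pattern. It lay between 16.4 and 27.2 FPKM in 15 libraries, and between 10.2 and 11.97 FPKM in the remaining 3, which were those of the wild type on GlcNAc. The range of the 6 group means on the log2 scale was 3.43 for xyn10A, wider than that of 89.1% of tested genes, and 0.97 for xlnR, wider than that of 36.7%.

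**Figure D1:**
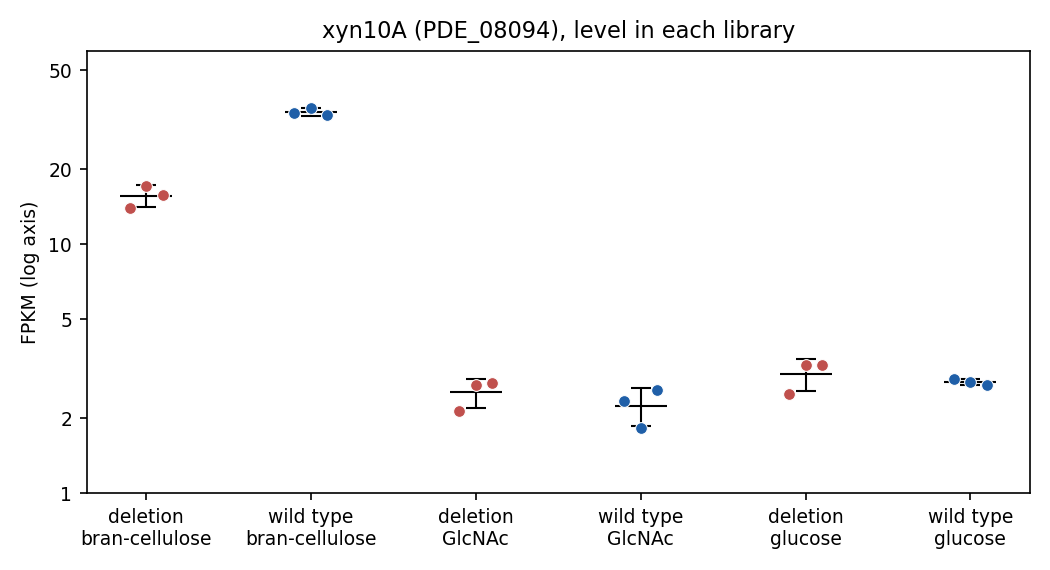
Level of xyn10A in FPKM (vertical log axis) in each of the 18 libraries, by group; each dot is 1 library, red for deletion and blue for wild type, and the black line and bars are the mean ± SD of 3 libraries. Deletion libraries on bran-cellulose sit between 14.1 and 17.2 FPKM, wild-type libraries on bran-cellulose between 33.0 and 35.3 FPKM, and all libraries on the other media at or below 3.27 FPKM.

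On bran-cellulose, the substrate that holds xylan, the xylanase gene fell in the deletion. The 3 deletion libraries had 14.1, 17.2 and 15.8 FPKM, against 33.6, 35.3 and 33.0 FPKM in the wild type. The groups did not overlap, and the highest deletion library was at 0.521 of the lowest wild-type library. How many of all genes separate in this way was not computed for any comparison, so non-overlap is given as a description. The means were 15.7 ± 1.57 FPKM in the deletion and 34.0 ± 1.19 FPKM in the wild type (SD, n = 3 each), so the deletion held 46.2% of the wild-type level. The log2 difference was -1.07 (SE 0.12, 95% interval -1.33 to -0.81, limma adjusted p = 0.00026). Genes that fell in this comparison made up 0.203% of those tested, and genes called in either direction 0.393%; 0.715% passed the adjusted p whatever their fold. The median difference over all 8390 genes was 0.00. By log2 difference xyn10A ranked 70 from the lowest of 8390 genes, and of these genes 17 were called lower. The call rests close to the fold threshold. It ended without deletion bran-cellulose replicate 1, where the log2 difference was -0.999 and the adjusted p 0.00265; over 13 alternatives the adjusted p ran from 0.000137 to 0.0156.

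In these bulk RNA samples, less xyn10A transcript in every hypha and fewer hyphae that express it cannot be told apart. The defining marker of conidiophores, the spore-bearing structures, was brlA (PDE_00087), a central regulator of conidiation. On bran-cellulose brlA was at 253.2 ± 30.3 FPKM in the deletion and at 253.1 ± 44.1 FPKM in the wild type (log2 difference 0.01). The part of conidiophores in the xyn10A difference was not tested.

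No genotype difference of xlnR passed the test on bran-cellulose. It had 20.5, 19.4 and 22.6 FPKM in deletion libraries and 20.3, 22.5 and 18.4 FPKM in wild-type libraries, and the groups overlapped. The means were 20.8 ± 1.61 FPKM in the deletion and 20.4 ± 2.06 FPKM in the wild type (SD, n = 3 each). limma gave a log2 difference of 0.03 with a 95% interval of -0.26 to 0.33 (adjusted p = 1), so a change of 1 log2 unit in either direction lies outside the interval. The sign of this small difference turned in 2 of the 6 fits that left out 1 library.

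**Figure D2:**
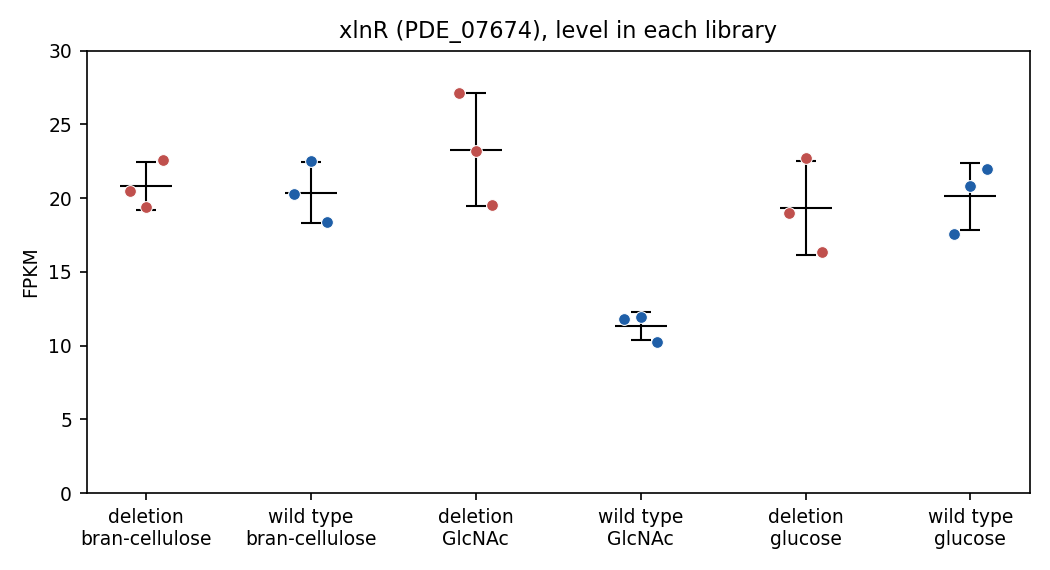
Level of xlnR in FPKM (linear axis from 0) in each of the 18 libraries, by group; dots are single libraries, red for deletion and blue for wild type, with the mean ± SD of 3 libraries in black. The wild type on GlcNAc sits at 10.2 to 11.97 FPKM, below every library of the other 5 groups.

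Off bran-cellulose no genotype difference of xyn10A passed the test. On GlcNAc the deletion libraries had 2.14, 2.72 and 2.76 FPKM and the wild-type libraries 2.34, 1.82 and 2.59 FPKM. On glucose the deletion libraries had 2.50, 3.27 and 3.26 FPKM and the wild-type libraries 2.87, 2.80 and 2.71 FPKM. Genotypes overlapped in both media. The log2 difference was 0.13 on GlcNAc (95% interval -0.13 to 0.39, limma adjusted p = 0.383) and 0.07 on glucose (-0.19 to 0.33, adjusted p = 0.674). The GlcNAc difference changed sign under median-ratio scaling (-0.05) and quantile normalization (-0.02). At these levels xyn10A in FPKM stood above 18.4% to 22.2% of all identifiers in a library, identifiers listed at 0 included, against 36.6% to 40.7% in the deletion and 58.4% to 60.2% in the wild type on bran-cellulose. brlA differed widely between genotypes on glucose, at 3.05 ± 1.38 FPKM in the deletion and 93.4 ± 52.8 FPKM in the wild type. Its part in the level of xyn10A there was not tested.

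The genotype difference of xyn10A itself differed between media. With the glucose difference as the base, that on bran-cellulose differed by a log2 of -1.15 (SE 0.17, 95% interval -1.51 to -0.78, limma adjusted p = 0.000316). With the GlcNAc difference as the base, it differed by -1.20 (SE 0.17, -1.57 to -0.83, adjusted p = 5.01e-05). Both were called in each of 19 alternatives. Calls in the lower direction made up 4.17% of tested genes against glucose and 15.3% against GlcNAc, or 9.55% and 25.1% in either direction. Under median-ratio scaling the share of calls that were higher turned to 55.1%, against 39.0% with FPKM as deposited, for bran-cellulose minus GlcNAc. Between GlcNAc and glucose the difference did not pass the test (0.05, 95% interval -0.32 to 0.42, adjusted p = 0.828).

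xlnR behaved in a different way across the media: its genotype difference lay on GlcNAc. Deletion libraries on GlcNAc had 27.2, 23.2 and 19.5 FPKM, against 11.8, 11.97 and 10.2 FPKM in wild-type libraries. The groups did not overlap, and the lowest deletion library stood 1.63-fold above the highest wild-type library. Here too the share of all genes without overlap was not computed. The means were 23.3 ± 3.81 FPKM in the deletion and 11.3 ± 0.967 FPKM in the wild type (SD, n = 3 each), a 2.06-fold ratio of means. limma gave a log2 difference of 0.97 (SE 0.14, 95% interval 0.68 to 1.26, adjusted p = 2.06e-05), which passed the adjusted p and fell just short of the fold threshold. It crossed the threshold with an offset of 0.1 FPKM (1.02), without deletion GlcNAc replicate 3 (1.09) and without wild-type GlcNAc replicate 2 (1.01).

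The adjusted p for xlnR on GlcNAc has to be read against a comparison in which most genes passed it. By the adjusted p alone 64.1% of tested genes differed, those higher in the deletion made up 41.1% of the tested, and 27.4% were called with the fold threshold. The median difference over all genes was 0.20, and median FPKM per library was 23.5 to 24.5 in the deletion against 20.4 to 20.9 in the wild type. Median-ratio scaling shifted that median by -0.20, and the share of calls that were higher was 45.4%, against 60.9% as deposited. Under this scaling xlnR differed by 0.74 (adjusted p = 0.000209), and under quantile normalization by 0.76 (7.97e-05). Over 13 alternatives the xlnR difference lay between 0.74 and 1.09 and the adjusted p between 1.51e-05 and 0.00223. brlA on GlcNAc was at 279.4 ± 61.8 FPKM in the deletion and 444.9 ± 69.5 FPKM in the wild type (log2 difference -0.68, adjusted p = 0.0907), and its part in the xlnR difference was not tested.

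On glucose xlnR did not separate the genotypes. Deletion libraries had 19.0, 22.7 and 16.4 FPKM and wild-type libraries 17.6, 20.8 and 22.0 FPKM, and the groups overlapped (log2 difference -0.06, 95% interval -0.35 to 0.23, limma adjusted p = 0.772). In this comparison 35.2% of tested genes passed the adjusted p and 11.0% were called. The sign of the xlnR difference turned in 2 of the 6 fits that left out 1 library.

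The genotype difference of xlnR also differed between media. Its genotype difference on GlcNAc exceeded that on glucose by a log2 of 1.03 (SE 0.19, 95% interval 0.61 to 1.45, limma adjusted p = 0.000491) and was called. Genes called higher in this test made up 15.3% of those tested and genes called in either direction 26.3%. The call ended under median-ratio scaling (0.88) and quantile normalization (0.86), and without deletion GlcNAc replicate 1 (0.92), wild-type GlcNAc replicate 3 (0.96), deletion glucose replicate 3 (0.92) or wild-type glucose replicate 3 (0.97). The adjusted p stayed between 0.000212 and 0.00311 over 19 alternatives. With the GlcNAc difference as the base, that on bran-cellulose differed by -0.94 (95% interval -1.35 to -0.52, adjusted p = 0.00106), below the fold threshold, in a test where 50.1% of genes passed the adjusted p. Without wild-type bran-cellulose replicate 3 or deletion GlcNAc replicate 3 it crossed that threshold (-1.01 and -1.05). In this test the median over all genes was -0.20. Over 19 alternatives the xlnR value ran from -1.05 to -0.72, with limma's adjusted p between 0.000442 and 0.00603. Between bran-cellulose and glucose it was 0.09 (-0.32 to 0.51, adjusted p = 0.788). As a mean over the 3 media, the genotype difference was -0.29 for xyn10A and 0.31 for xlnR (adjusted p = 0.00265 and 0.0036); 56.5% of genes passed the adjusted p in that comparison and 7.53% were called, neither of these genes among them. The share of those calls that were higher was 34.7% under median-ratio scaling, against 45.1% as deposited.

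**Figure D3:**
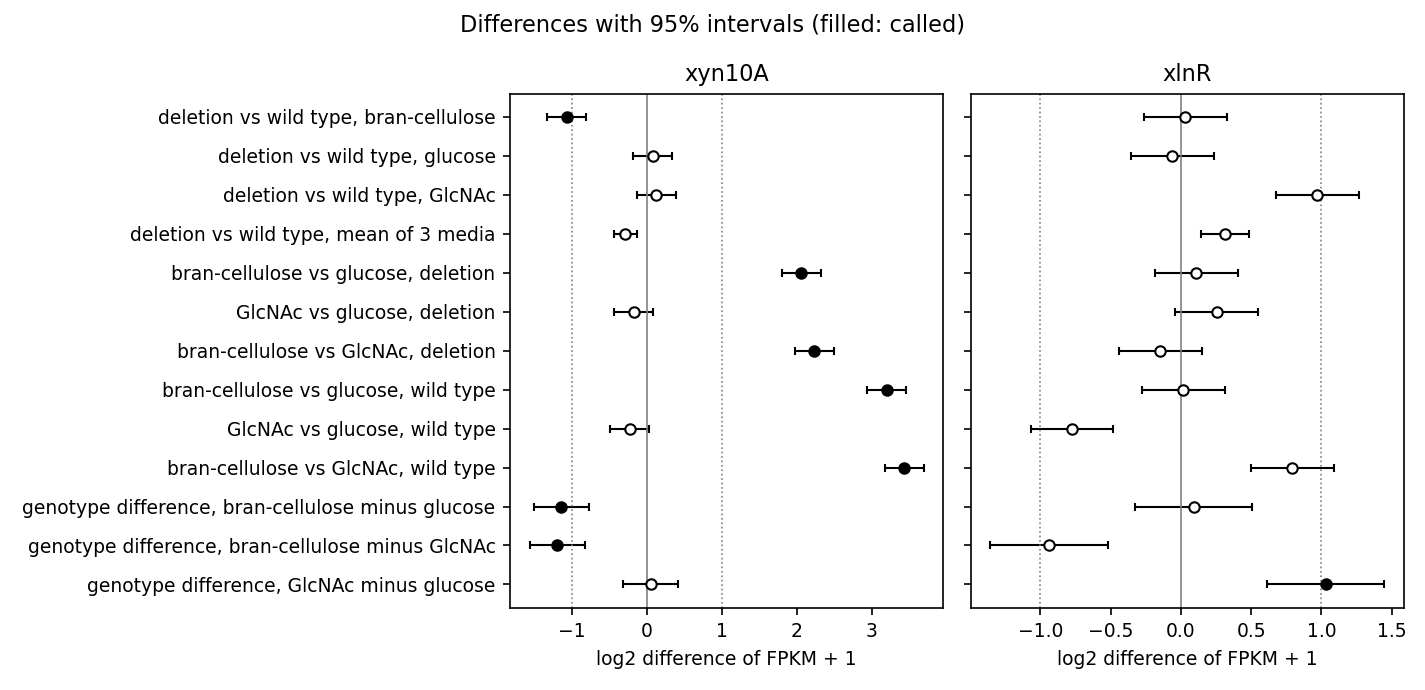
Log2 differences of FPKM + 1 for xyn10A (left) and xlnR (right) in the 13 comparisons, each on its own horizontal scale, with 95% intervals from limma; filled circles were called, open circles were not, and dotted lines mark the fold threshold of 1. For xyn10A all called values, from -1.20 to 3.43, involve bran-cellulose, while the mean of 3 media (-0.29) was not called. For xlnR a single call stands at 1.03.

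The response of xyn10A to bran-cellulose was present in both genotypes. In the deletion the mean was 15.7 ± 1.57 FPKM on bran-cellulose, against 3.01 ± 0.442 FPKM on glucose and 2.54 ± 0.347 FPKM on GlcNAc (SD, n = 3 each). In the wild type it was 34.0 ± 1.19 FPKM on bran-cellulose, against 2.79 ± 0.0802 FPKM on glucose and 2.25 ± 0.393 FPKM on GlcNAc. The ratio of means of bran-cellulose over glucose was 5.21 in the deletion and 12.2 in the wild type, and that of bran-cellulose over GlcNAc was 6.18 in the deletion and 15.1 in the wild type. Single libraries gave ratios of 4.30 to 6.88 in the deletion and 11.5 to 13.0 in the wild type for bran-cellulose over glucose, so these spans did not overlap. The conidiophore marker brlA rose as well on bran-cellulose over glucose, by a log2 of 6.02 in the deletion (253.2 ± 30.3 FPKM against 3.05 ± 1.38 FPKM; limma adjusted p = 1.38e-09) and by 1.57 in the wild type (253.1 ± 44.1 FPKM against 93.4 ± 52.8 FPKM; adjusted p = 0.00116). Over GlcNAc its difference on bran-cellulose did not pass the test, at -0.12 in the deletion and -0.81 in the wild type (adjusted p = 0.780 and 0.0599), though in the wild type it was called lower under median-ratio scaling (-1.01). Its part in the rise of xyn10A was not tested.

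On the log2 scale xyn10A rose on bran-cellulose over glucose by 2.06 in the deletion (95% interval 1.80 to 2.32, limma adjusted p = 2.35e-09) and by 3.20 in the wild type (2.94 to 3.46, adjusted p = 3.38e-11). Genes that rose made up 12.4% of those tested in the deletion and 10.8% in the wild type; genes called in either direction made up 24.2% and 18.7%, and 57.8% and 54.6% passed the adjusted p. By size of the difference xyn10A ranked 509 of 8390 from the top in the deletion and 107 of 8390 in the wild type. Over GlcNAc it rose by 2.24 in the deletion (adjusted p = 1.01e-09) and by 3.43 in the wild type (adjusted p = 9.14e-12), where 11.4% and 12.2% of genes rose and 20.1% and 18.7% were called in either direction, with 55.3% and 48.1% past the adjusted p. In the wild type, median-ratio scaling turned the share of calls that were higher to 46.8%, against 57.6% as deposited, for bran-cellulose over glucose. For bran-cellulose over GlcNAc it turned to 54.7% under that scaling and to 54.0% under quantile normalization, against 65.1%. These comparisons share their bran-cellulose libraries within a genotype. The smaller rise in the deletion is the same quantity as the difference between media tested above, and is no second piece of evidence.

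GlcNAc and glucose could not be separated for xyn10A by the test. The log2 difference of GlcNAc from glucose was -0.18 in the deletion (95% interval -0.44 to 0.08, limma adjusted p = 0.212) and -0.23 in the wild type (-0.49 to 0.03, adjusted p = 0.115). In these comparisons 66.0% of genes in the deletion and 62.6% in the wild type passed the adjusted p, and 30.6% and 26.0% were called. The wild-type groups did not overlap, with 1.82 to 2.59 FPKM on GlcNAc and 2.71 to 2.87 FPKM on glucose, while the deletion groups overlapped. The share of all genes without overlap was not computed, so no difference between the sugars is read from this separation.

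Between media, xlnR passed the adjusted p in the 2 wild-type comparisons that involve GlcNAc. The wild type had 11.3 ± 0.967 FPKM on GlcNAc against 20.1 ± 2.28 FPKM on glucose, with no overlap (log2 difference -0.77, 95% interval -1.07 to -0.48, adjusted p = 0.000183). It had 20.4 ± 2.06 FPKM on bran-cellulose against the same 11.3 FPKM on GlcNAc (0.79, 0.50 to 1.09, adjusted p = 0.00022), and these 2 comparisons share the GlcNAc libraries. By the adjusted p alone 62.6% and 48.1% of genes passed in them, and the xlnR differences were below the fold threshold in all 13 alternatives of each. Over these alternatives the xlnR difference lay between -0.86 and -0.71 for GlcNAc over glucose. For bran-cellulose over GlcNAc it lay between 0.52 and 0.86, where the median over all genes was 0.15. brlA rose in the wild type on GlcNAc over glucose, by 2.39 (adjusted p = 2.18e-05), and its part in the xlnR difference there was not tested. On bran-cellulose against glucose the wild type differed by 0.02 (-0.28 to 0.31, adjusted p = 0.930), with 54.6% of genes past the adjusted p, and the sign turned under median-ratio scaling (-0.15) and quantile normalization (-0.19). In the deletion, xlnR differed by 0.26 on GlcNAc over glucose (-0.04 to 0.55, adjusted p = 0.116), by 0.11 on bran-cellulose over glucose (-0.18 to 0.40, adjusted p = 0.516) and by -0.15 on bran-cellulose over GlcNAc (-0.44 to 0.15, adjusted p = 0.390). The groups overlapped in each of these 3.

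In order of mean level, xyn10A stood highest in the wild type on bran-cellulose, then in the deletion on bran-cellulose, and each was clear of its lower neighbour. The other 4 groups followed as deletion on glucose, wild type on glucose, deletion on GlcNAc and wild type on GlcNAc, and each of these overlapped with the next. xlnR stood highest in the deletion on GlcNAc, followed by the deletion and the wild type on bran-cellulose and the wild type and the deletion on glucose, and all neighbours among these 5 overlapped. The wild type on GlcNAc came last and overlapped with none.

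The FPKM of both genes were also set side by side in each library. FPKM is divided by gene length, whereas the labels' protocol describes tag libraries, which do not need it. How the values were quantified is not stated, and gene lengths were not used here. These ratios therefore do not establish which transcript was the more abundant, and they compare libraries with each other. On bran-cellulose the FPKM of xyn10A was 0.757 ± 0.111 times that of xlnR in the deletion and 1.67 ± 0.114 times in the wild type (SD, n = 3 each). On GlcNAc the ratio was 0.112 ± 0.0315 in the deletion and 0.201 ± 0.0508 in the wild type, and on glucose it was 0.158 ± 0.036 in the deletion and 0.140 ± 0.0205 in the wild type. In FPKM the ratio was between 1.57 and 1.79 in the 3 wild-type libraries on bran-cellulose and below 1 in the other 15 libraries. On GlcNAc the 2 genotypes did not overlap in this ratio, at 0.0788 to 0.141 in the deletion and 0.152 to 0.253 in the wild type, with xyn10A at like levels and xlnR higher in the deletion. These ratios are a description of the libraries, and no test was made on them.

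**Figure D4:**
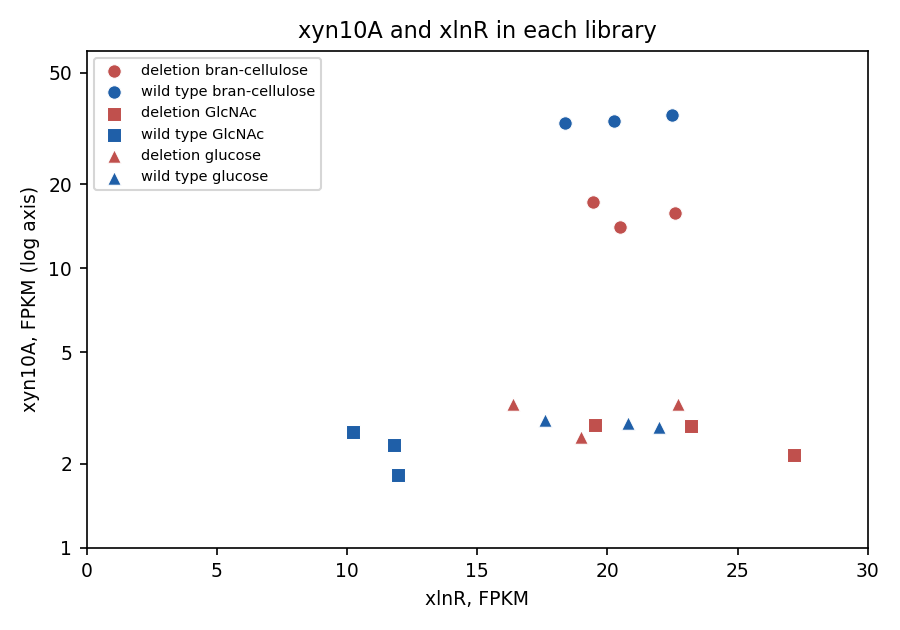
Level of xyn10A (vertical log axis, FPKM) against level of xlnR (horizontal axis, FPKM) in each of the 18 libraries; red is deletion, blue is wild type, and circles, squares and triangles are bran-cellulose, GlcNAc and glucose. The bran-cellulose libraries of both genotypes share xlnR levels of 18.4 to 22.6 FPKM and differ in xyn10A. Wild-type GlcNAc libraries stand alone at low xlnR, with xyn10A at 1.82 to 2.59 FPKM. That group has the lowest xyn10A mean of the 6 (2.25 FPKM) and overlaps in xyn10A with the deletion on GlcNAc.

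The other genes of plant cell wall degradation were described through 9 locus tags. They are the cellobiohydrolase genes cel7A-2 (PDE_07945) and cel6A (PDE_07124), the endoglucanase genes cel7B (PDE_07929) and cel5B (PDE_09226), the β-glucosidase genes bgl1 (PDE_02736) and bgl2 (PDE_00579), the cellulase activator gene clrB (PDE_05999), creA (PDE_03168) and amyR (PDE_03964), which activates amylase genes. On bran-cellulose the deletion level was 46.2% of the wild-type level for xyn10A. It was 52.9% for cel6A, 62.3% for cel7B, 65.7% for cel7A-2 and 76.0% for cel5B, while bgl2 was at 91.5% and bgl1 at 132.3%. In this comparison 0 of the 9 other tags were called by limma and 2 passed the adjusted p, both lower (cel6A and cel7B), against 0.393% called and 0.715% past the adjusted p over all genes. The median log2 difference of the 9 tags was -0.20, against 0.00 over all genes. Whether xyn10A differed more than the cellulase genes was not tested, and the fall of xyn10A was the only call among the 11 tags. When 1 library at a time was left out, cel6A had an adjusted p above 0.05 in 4 of 6 fits, as had cel7B in 3; cel6A was called when wild-type replicate 1 was left out (-1.03).

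The rise of xyn10A on bran-cellulose over glucose can be set beside that of the cellulase genes, with no test between genes. In the wild type the log2 difference was 3.20 for xyn10A and between 5.85 and 9.09 for the 4 cellulase genes, all of which rose. In the deletion it was 2.06 for xyn10A and between 5.25 and 8.22 for the same 4, all of which rose. bgl2 rose in both, by 5.59 in the deletion and 7.35 in the wild type. In FPKM on bran-cellulose, with the limit on levels between genes given above, xyn10A was below all 6 of these enzyme genes in both genotypes, the lowest of which was cel7B at 191.8 ± 12.04 FPKM in the deletion and 307.6 ± 9.996 FPKM in the wild type (SD, n = 3 each). Of the 9 tags 5 rose in the deletion and 6 in the wild type, with 0 falling in either; over all genes 12.4% rose in the deletion and 10.8% in the wild type.

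On GlcNAc 2 other regulators rose in the deletion, and xlnR lay just below the fold threshold. clrB was at 20.5 ± 1.67 FPKM in the deletion and 8.17 ± 0.479 FPKM in the wild type (log2 difference 1.23), and creA at 312.0 ± 39.8 FPKM in the deletion and 153.5 ± 11.2 FPKM in the wild type (1.01). amyR fell, at 10.2 ± 1.88 FPKM in the deletion and 21.9 ± 0.818 FPKM in the wild type (-1.04). Of the 9 tags 4 rose and 1 fell, and 8 passed limma's adjusted p, against 27.4% called in either direction and 64.1% past the adjusted p over all genes. Their median difference was 0.87, against 0.20 over all genes. cel7A-2 (1.54) and cel6A (1.12) rose, while the xyn10A difference of 0.13 did not pass the test. The calls of creA and cel6A ended under median-ratio scaling (0.77 and 0.90) and quantile normalization (0.97 and 0.95). The creA call also ended in 4 of 6 fits that left out 1 library, at 0.94 to 0.99 (deletion replicate 1 or 2, or wild-type replicate 2 or 3). The cel6A call ended when wild-type replicate 3 was left out (0.95). That of amyR ended when deletion replicate 2 (-0.99) or 3 (-0.96) was left out.

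clrB and xlnR both encode activators, and their values on bran-cellulose are given side by side. In the wild type clrB rose by a log2 of 1.54 over glucose, to 110.4 ± 7.44 FPKM against 38.1 ± 9.08 FPKM, against a difference of 0.02 for xlnR. In the deletion clrB differed by 0.51 (96.2 ± 5.93 FPKM against 67.6 ± 9.39 FPKM; adjusted p = 0.00779, below the fold threshold) and xlnR by 0.11. creA differed by 0.10 in the deletion and -0.10 in the wild type. Over GlcNAc, the difference on bran-cellulose in the deletion missed the adjusted p for xlnR (-0.15). It passed for clrB (2.18), amyR (3.78) and creA (0.53), in a comparison where 55.3% of all tested genes passed. No test between genes was made.

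**Figure D5:**
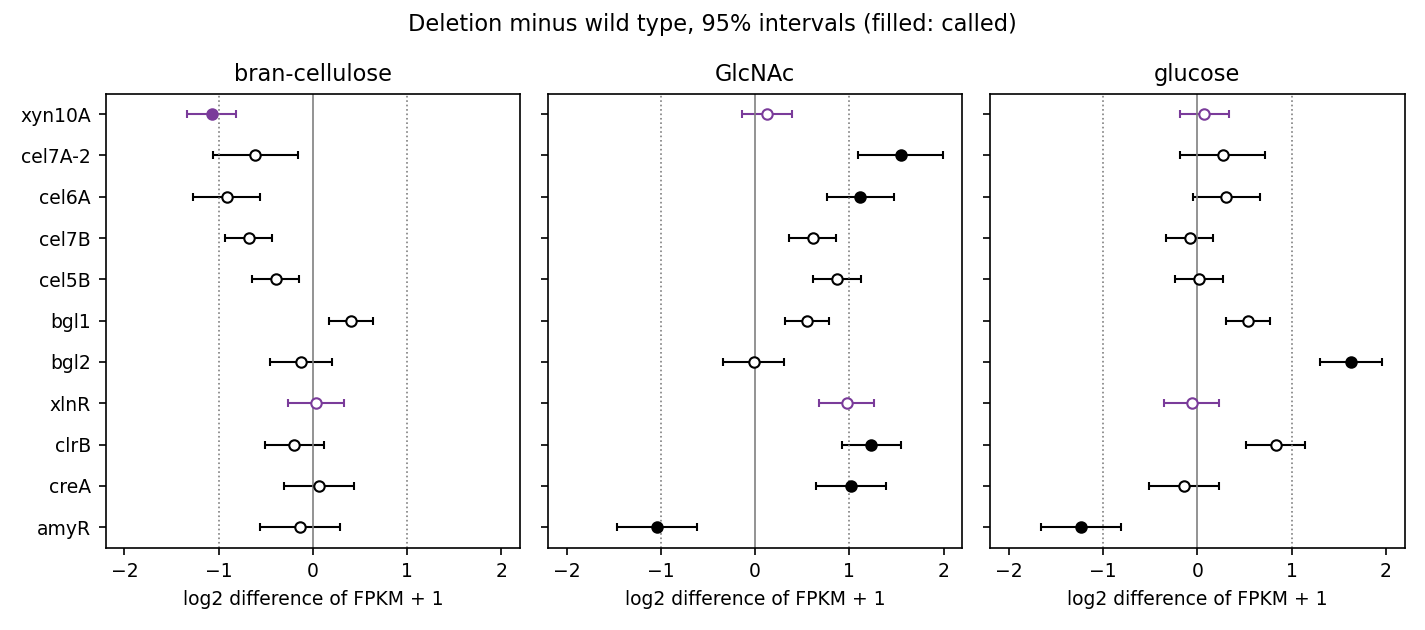
Log2 difference of FPKM + 1, deletion minus wild type, with 95% intervals from limma, for xyn10A and 6 other enzyme genes and for xlnR and 3 other regulators, on bran-cellulose, GlcNAc and glucose; purple marks xyn10A and xlnR, filled circles were called and dotted lines mark the fold threshold of 1. On bran-cellulose xyn10A at -1.07 is the only filled circle, and on GlcNAc xlnR at 0.97 lies beside creA at 1.01 and clrB at 1.23.

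The identifiers most like each gene were found from the root mean square difference between centred profiles of the 6 group means of log2(FPKM + 1). For xyn10A these were PDE_02682 (0.24), PDE_07850 (0.30) and PDE_03930 (0.36), against a median of 1.35 over all tested genes, and 14 genes lay within 0.5. PDE_02682 was at 64.4 ± 7.21 FPKM in the deletion and 122.6 ± 15.2 FPKM in the wild type on bran-cellulose, and its group means elsewhere were 11.4 to 20.6 FPKM. PDE_07850 was listed at 0 in all 12 libraries off bran-cellulose, and PDE_03930 had group means of at most 0.237 FPKM there. On bran-cellulose PDE_07850 was at 4.37 ± 1.82 FPKM in the deletion and 5.05 ± 1.79 FPKM in the wild type. PDE_03930 was there at 9.14 ± 2.64 FPKM in the deletion and 12.1 ± 1.54 FPKM in the wild type. Both passed the filter through their bran-cellulose libraries alone, and the size of their rise depends on the added 1 FPKM. These 2 resemble xyn10A in its medium more than in its genotype difference, and the likeness in medium is a description only. Pearson's r over the 18 libraries, which share groups and are not independent points, was 0.97, 0.96 and 0.98.

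For xlnR the nearest were PDE_03538 (0.06), PDE_05467 (0.06) and PDE_06224 (0.06), with Pearson's r of 0.92, 0.81 and 0.84 over the 18 libraries. Their levels differed from that of xlnR. On GlcNAc PDE_03538 was at 45.3 ± 2.54 FPKM in the deletion and 22.4 ± 0.702 FPKM in the wild type, PDE_05467 at 237.8 ± 36.3 FPKM in the deletion and 109.9 ± 6.28 FPKM in the wild type, and PDE_06224 at 155.4 ± 7.32 FPKM in the deletion and 75.8 ± 2.06 FPKM in the wild type. A small distance to xlnR was common: 4315 of the tested genes lay within 0.5 of it, and the median distance was 0.49. The range of the xlnR group means was itself only 0.97, so a gene that did not change in any group also lies within 0.5. That number therefore does not count genes that share the low level of xlnR in the wild type on GlcNAc. These identifiers were chosen for their likeness, so their values are given without a test.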

How the data were processed

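Oligo(dT)-selected mRNA of 18 mycelium samples was made into NlaIII and MmeI tag libraries, per the labels' protocols. The authors deposited 1 table of FPKM values per gene and library, per the file headers; no source used here names the aligner, counter, build or annotation. Tag libraries need no length correction, whereas FPKM is divided by length. This is constant for 1 gene across libraries but enters the offset, the filter and the levels compared between genes. Each of the 18 columns matched 1 sample title. A gene needed 1 FPKM or more in 3 or more libraries (8390 of 9261 passed; 871 did not). limma 3.58.1 in R 4.3.3 was fitted to log2(FPKM + 1) of all 18 libraries, with a mean for each of the 6 groups and a trend in the prior. The 13 comparisons were contrasts of these means, two-sided, each adjusted by Benjamini-Hochberg over all genes and not across comparisons. The procedure was tested on simulated data. An exact permutation test of 3 against 3 libraries cannot go below 0.1 and was not used. Alternatives changed the offset (0.1), filter, scaling, samples fitted, prior or replicates, or added a block. Named genes were both members, 9 pathway tags, the marker brlA and the 3 nearest patterns per member. The members, lists and tests were chosen with earlier results of these data known. The reference gene table is of another strain (ASM172317v3) and matched 0 of 9261 identifiers, so no sequence is shown. Figures were drawn with matplotlib 3.10.9.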

Additional observations from a re-analysis of the deposited data

Results flagged for a closer look

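The test of a difference between media in the genotype difference passed the adjusted p (limma) for 4 of the 6 results on xyn10A and xlnR. For xyn10A it was -1.15 for bran-cellulose minus glucose and -1.20 for bran-cellulose minus GlcNAc on the log2 scale. For xlnR it was -0.94 for bran-cellulose minus GlcNAc and 1.03 for GlcNAc minus glucose. All but the -0.94 were also called with the fold threshold. Over all genes 9.55% were called in either direction for bran-cellulose minus glucose, 25.1% for bran-cellulose minus GlcNAc and 26.3% for GlcNAc minus glucose. The share past the adjusted p was 50.1% for bran-cellulose minus GlcNAc and is not given for the other tests. In those, limma's p before adjustment was under 0.05 for 2749 of 8390 genes (bran-cellulose minus glucose) and 4661 of 8390 (GlcNAc minus glucose). The 2 values of each gene share libraries, those of bran-cellulose for xyn10A and those of GlcNAc for xlnR.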

How the results depend on the processing

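Of 180 values for xyn10A and xlnR under alternatives that kept every library, 170 stayed on the same side of the thresholds and kept their sign. The genotype difference of xlnR on GlcNAc was called with an offset of 0.1 (1.02). The genotype difference of xlnR for GlcNAc minus glucose lost its call under median-ratio scaling (0.88) and quantile normalization (0.86). Under these scalings, in that order, the sign turned for the genotype difference of xyn10A on GlcNAc (-0.046 and -0.015). In the same order it turned for the genotype difference of xyn10A for GlcNAc minus glucose (-0.055 and -0.16). So did that of xlnR on bran-cellulose over glucose in the wild type (-0.15 and -0.19). Quantile normalization also turned that of xlnR on bran-cellulose over glucose in the deletion (-0.073). None of these 4 results was called. The cause was not tested.

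Leaving out 1 library at a time, the log2 difference of deletion over wild type lay between -1.14 and -0.999 for xyn10A on bran-cellulose, and for xlnR between -0.037 and 0.10 on bran-cellulose, -0.18 and 0.048 on glucose, and 0.86 and 1.09 on GlcNAc. It lay between -0.071 and 0.087 for xlnR on bran-cellulose over glucose in the wild type. The genotype difference of xlnR lay between 0.92 and 1.15 for GlcNAc minus glucose, -1.05 and -0.83 for bran-cellulose minus GlcNAc, and -0.017 and 0.21 for bran-cellulose minus glucose; that of xyn10A for GlcNAc minus glucose lay between -0.047 and 0.14.

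Replicate numbers did not pair the libraries throughout: deviations of same-numbered libraries correlated at -0.17 to 0.29, over 0.1 in 6 of 45 pairs. The same number correlated best in 15 of the 45, with 3 replicates to choose from each time. That is the share that numbers without pairing would give. The 2 highest values, both 0.29, were for replicate 3 of the deletion on GlcNAc. They paired it with the wild type on bran-cellulose and with the deletion on glucose. A batch shared by some groups was not tested. Every group holds the same replicate numbers, so a replicate block cannot move an estimate and only the spread and the adjusted p could change. With the block xyn10A on bran-cellulose stayed at -1.07 (limma adjusted p = 0.000632). No call of either gene changed, and counts of called genes moved by a factor of 0.97 to 1.00. All 90 counts of called genes stayed within 1.5 times. The low FPKM of xyn10A off bran-cellulose, with depth unknown, limits what could be detected there.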
